A study of Danio rerio with 15 samples.

Results

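The genes described here are 3 matrix-degrading proteases of the zebrafish: MMP9 (ENSDARG00000042816), mmp13a (ENSDARG00000012395) and adam8b (ENSDARG00000057644). They were taken by symbol from a table of 28103 genes, and each symbol had 1 Ensembl ID. They were chosen by their measured RNA levels, which were higher in thrombus tissue at 3 h after a laser injury than in uninjured venous tissue. Every value that sets them against the control or against 3 h is therefore given as a description, with no test. The times 1, 6 and 12 h were compared with each other by test.

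Matrix metalloproteinases are zinc-dependent enzymes that cut proteins of the extracellular matrix. They are made as inactive proenzymes, are activated by other proteases such as plasmin, and are blocked by tissue inhibitors (TIMPs). MMP9 is a gelatinase that cuts denatured collagen and the collagen of basement membranes, and MMP13 is a collagenase that cuts fibrillar collagen. ADAM8 is a membrane-bound protease with a disintegrin domain that, in human, is known from leukocytes and sheds proteins from cell surfaces. In zebrafish larvae, mmp9 and mmp13a are known to be switched on in wounded tissue, in epidermal cells as well as in leukocytes.

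All larvae carried the transgenes Tg (flk1:eGFP; gata1:dsRed), which mark endothelium in green and erythroid cells in red. Age and strain of the larvae are not stated. A laser injured the venous endothelium 2 somites behind the anal pore, and thrombus tissue was collected 1, 3, 6 or 12 h later, times at which the submitters place the clot's start, its peak, a stable phase and its regression. The control was venous tissue of larvae with no injury and no thrombus. Laser microdissection took the tissue from 20 frozen sections, each 20 µm thick. There were 5 groups of 3 libraries, lettered A, B and C in each group except at 1 h, where 1 library had no matching letter and is called unlettered. Which animals went into which library is not labelled, and 1 animal may have given several libraries or several animals 1. Spread between libraries, possibly technical, is then all that the p-values measure, and they can be too small. The control has no time points of its own.

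Levels are given in FPKM, reads scaled to transcript length and library size, so that levels of different genes can be set side by side. The libraries held 12486844 to 15651535 reads recovered from the FPKM steps. Muscle markers were the most abundant marker list in every library, with 77976 to 211802 summed FPKM. Of 30 matched endothelial markers 27 passed the filter on low values, and their sum was 23.9 to 110.5 FPKM; kdrl, the receptor gene whose promoter drives the green transgene, ranged from 0.0276 to 7.20 FPKM. The clotting factor gene vwf, the receptor gene flt1 and the thrombocyte genes itga2b and mpl did not pass that filter. By these sums, muscle RNA far exceeded endothelial RNA in every captured sample.

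MMP9 was near absent from uninjured tissue and was highest at 3 h. It was listed at 0 in control A and C and at 0.413 FPKM in control B. At 1 h it had 10.2 FPKM in library A and 5.87 in the unlettered library, and was listed at 0 in library C. At 3 h it had 112.5, 88.3 and 46.5 FPKM in libraries A, B and C. Every 3 h library was thus above every other library of the series, of which 1 h library A came next. At 6 h the 3 libraries had 9.17, 1.84 and 3.97 FPKM. At 12 h they had 0.0280, 0.101 and 1.90 FPKM. The 6 h libraries lay within the span of the 1 h libraries, and 12 h library C lay just above 6 h library B. The group means were 0.138 ± 0.238 in the control, 5.34 ± 5.10 at 1 h, 82.4 ± 33.4 at 3 h, 5.00 ± 3.77 at 6 h and 0.676 ± 1.06 at 12 h (SD, n = 3). The spread at 1 h was as large as its mean, and neither 1 h from 6 h nor 12 h from the control stood apart beyond these SDs.

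The reads behind these MMP9 levels ranged from 0 to 4049. The 3 h libraries held 4049, 3082 and 1734 reads of MMP9, the 6 h libraries 319, 68 and 159, and the 12 h libraries 1, 4 and 70. A library with no read allows up to 3 reads, which for MMP9 is 0.0688 to 0.0862 FPKM depending on the library, and this limit covers counting error only. The level in 12 h library A was below that limit. In such bulk samples, fewer cells that make a transcript and less of it per cell cannot be told apart.

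mmp13a was detected in every library, and its mean at 6 h was the second highest. In the control it had 1.01, 0.189 and 0.220 FPKM in libraries A, B and C. At 1 h it had 9.71 FPKM in library A, 1.97 in the unlettered library and 2.14 in library C, all above every control library. At 3 h it had 40.9, 49.7 and 11.8 FPKM. Library C was again the lowest of the 3 h libraries, and for this gene it fell inside the span of the 6 h libraries. Those had 9.07, 15.0 and 9.82 FPKM, the most even of the injured groups. At 12 h the libraries ran from 0.0919 FPKM in A and 0.703 in B to 14.4 in C. Library C thus had mmp13a at the 6 h level, while library A, with 2 reads, was under the limit of 0.113 to 0.142 FPKM that 3 reads give for this gene. The means were 0.472 ± 0.464 in the control, 4.61 ± 4.42 at 1 h, 34.1 ± 19.8 at 3 h, 11.3 ± 3.24 at 6 h and 5.05 ± 8.07 at 12 h (SD, n = 3). The means at 12 h and 1 h, neighbours in that order, differed by less than their SDs.

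adam8b was the lowest of the 3 genes at 3 h. It was listed at 0 in control A and C and had 1.13 FPKM, 60 reads, in control B. At 1 h it had 0.446 FPKM in library A, 4.47 in the unlettered library and 4.87 in library C. adam8b was thus lowest in library A, where MMP9 was highest, and was present in library C, where MMP9 was listed at 0. The unlettered library and library C held 214 and 215 reads of adam8b, so no order is read between them. At 3 h adam8b had 16.8, 5.16 and 8.91 FPKM, at 6 h 6.33, 0.955 and 1.62, and at 12 h 0.137, 1.15 and 0.466. The 3 h libraries were above every library of the other groups except 6 h library A, which exceeded 3 h library B. The means were 0.376 ± 0.650 in the control, 3.26 ± 2.45 at 1 h, 10.3 ± 5.92 at 3 h, 2.97 ± 2.93 at 6 h and 0.586 ± 0.518 at 12 h (SD, n = 3). The control and 12 h levels overlapped, as did those of 1 h and 6 h.

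**Figure D1:**
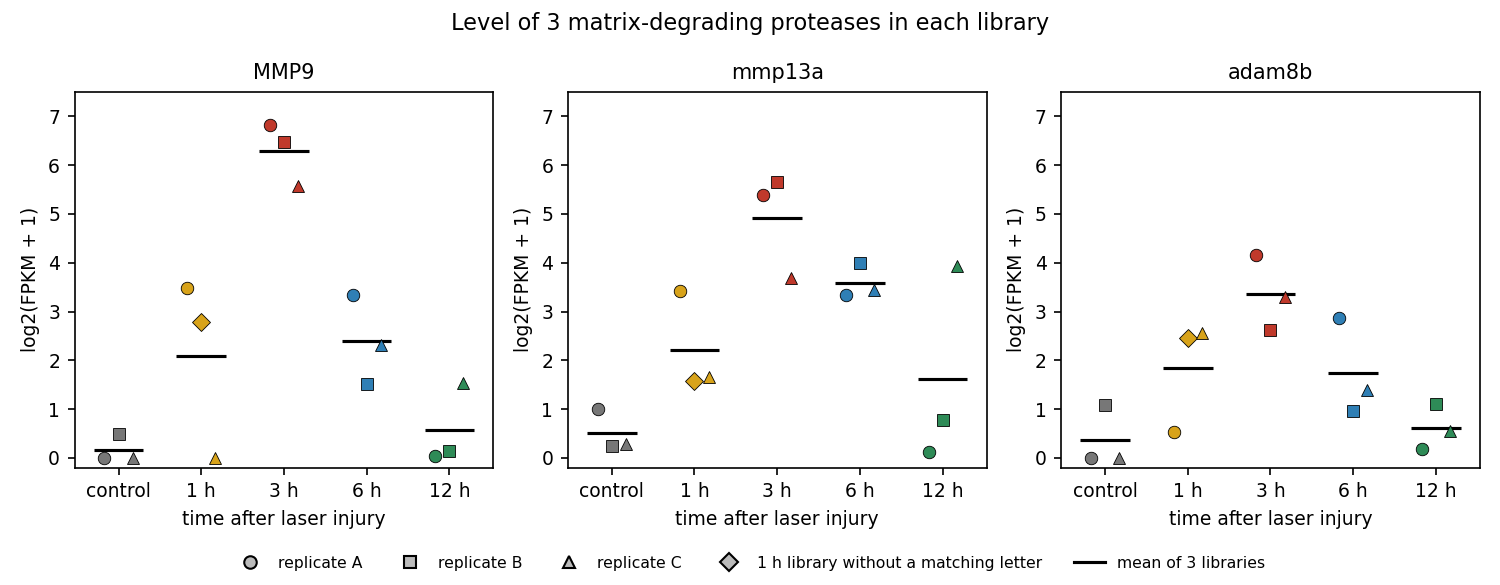
The vertical axes give log2(FPKM + 1) of MMP9, mmp13a and adam8b, and the horizontal axes the uninjured control and the times after laser injury. Each symbol is 1 library, its shape gives the replicate letter and the bars are means of 3 libraries. MMP9 has its 3 h libraries (46.5 to 112.5 FPKM) above all others, mmp13a stays up in all 6 h libraries and in 12 h library C, and adam8b spans the smallest range.

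The comparison that chose the genes gave differences in log2(FPKM + 1), 3 h minus control, of 6.13 for MMP9, 4.40 for mmp13a and 3.00 for adam8b. By this difference they stood at ranks 3, 23 and 108 of 13051 kept genes, which are those with at least 1 FPKM in at least 3 libraries. In that comparison 0.835% of kept genes passed the adjusted threshold of 0.05 in the higher direction. All 3 genes had every 3 h library above every control library, as had 7.65% of kept genes; since this contrast chose them, nothing is read from it. Every 3 h library lay above every other library for 1 of the 3, MMP9, and for 1.26% of kept genes. The choice by 3 h levels favours this pattern too, so nothing is read from it either. The log2 differences from the control at 1, 6 and 12 h were 1.92, 2.22 and 0.41 for MMP9, 1.70, 3.08 and 1.098 for mmp13a, and 1.48, 1.38 and 0.25 for adam8b. These comparisons share the control libraries.

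As a share of its own 3 h mean, MMP9 was lower at 6 and 12 h than the other two. The 6 h mean was 6.06% of the 3 h mean for MMP9, 33.1% for mmp13a and 28.9% for adam8b. The 12 h mean was 0.820% of the 3 h mean for MMP9, 14.8% for mmp13a and 5.70% for adam8b. Library C carried most of the 12 h means of MMP9 and mmp13a, and without it their shares were 0.0780% and 1.17%. Without 12 h library B the share of adam8b was 2.94%, and without 6 h library A the 6 h shares were 3.53% for MMP9 and 12.51% for adam8b. MMP9 had the lowest share of the 3 genes at both times whichever library of the groups was left out. These shares divide by the 3 h mean, which the choice of genes used, so nothing is read from that order. The balance of the 2 metalloproteinases also differed between times. The ratio of MMP9 to mmp13a FPKM was 2.75, 1.78 and 3.94 in the 3 h libraries, 1.01, 0.123 and 0.405 at 6 h, and 0.304, 0.143 and 0.132 at 12 h. All 3 h libraries thus had more MMP9 than mmp13a, and all 12 h libraries more mmp13a than MMP9. MMP9 made up 61.7% to 69.2% of the summed FPKM of the 3 genes at 3 h and 5.14% to 11.4% at 12 h. At 1 h the ratio was 1.05 in library A, 2.98 in the unlettered library and 0 in library C, where MMP9 was listed at 0. Since 3 h chose the genes, these ratios are a description.

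Among 1, 6 and 12 h, each gene was compared in 3 pairs, 9 tests in all, with limma on log2(FPKM + 1) fitted to all libraries and Benjamini-Hochberg adjustment over 13051 genes. None of the 9 passed the threshold. Between 6 and 12 h, where 0.0996% of kept genes passed, MMP9 differed by -1.82 (95% interval -3.52 to -0.12, adjusted p = 0.416) and mmp13a by -1.98 (-3.79 to -0.17, adjusted p = 0.408). These were the 2 tests of the 9 whose interval left out 0. Such an interval means an unadjusted p under 0.05, which 11.1% of kept genes had between 6 and 12 h. adam8b differed by -1.13 (-2.65 to 0.39, adjusted p = 0.602). From 1 to 6 h, where 0.0536% of kept genes passed, the differences were 0.30 for MMP9 (-1.39 to 2.00, adjusted p = 0.958), 1.38 for mmp13a (-0.43 to 3.19, adjusted p = 0.726) and -0.10 for adam8b (-1.62 to 1.41, adjusted p = 0.999). From 1 to 12 h, where 0.636% passed, they were -1.52 for MMP9 (-3.21 to 0.18, adjusted p = 0.384), -0.60 for mmp13a (-2.41 to 1.21, adjusted p = 0.779) and -1.23 for adam8b (-2.75 to 0.29, adjusted p = 0.430). The other 7 intervals held 0, and all 9 also held differences of more than 1 on the log2 scale. The MMP9 difference between 6 and 1 h was -0.74 without 1 h library C and -0.18 without 6 h library A. The mmp13a difference between 12 and 1 h was 0.14 without 12 h library A and 0.001 without 1 h library A. The adam8b difference between 6 and 1 h was above 0 without the unlettered 1 h library (0.20), 1 h library C (0.25), 6 h library B (0.29) or 6 h library C (0.07).

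**Figure D2:**
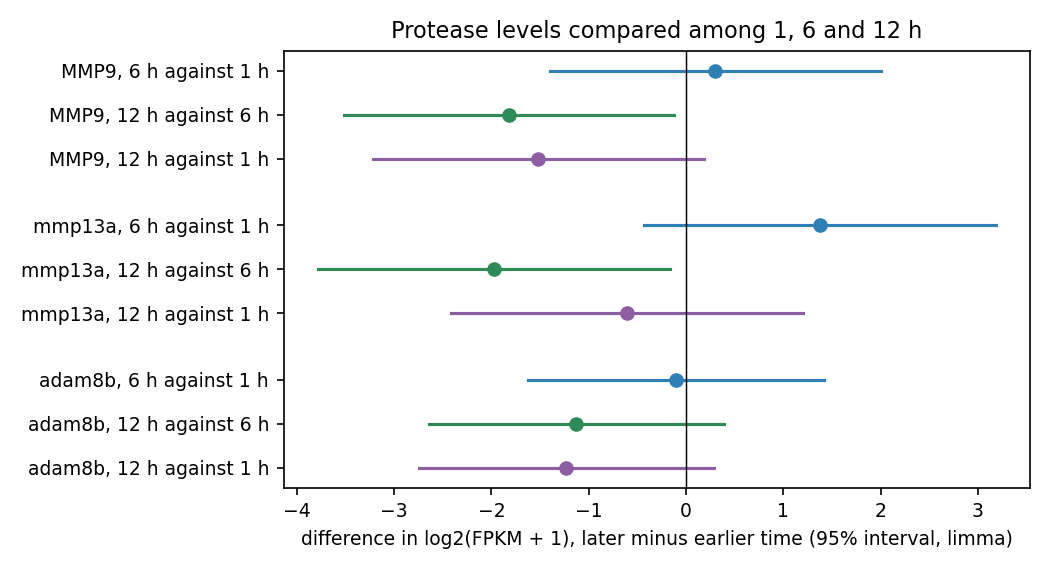
The horizontal axis gives the difference in log2(FPKM + 1) between 2 of the times 1, 6 and 12 h, later minus earlier, and each row is 1 gene and pair of times. Points are limma estimates and lines their 95% intervals before adjustment. The intervals of MMP9 and mmp13a between 12 and 6 h (-3.52 to -0.12 and -3.79 to -0.17) lie left of 0 and the other 7 cross it. Neither of these tests passed after adjustment, and 11.1% of kept genes had an unadjusted p under 0.05 between these times.

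The rest of the 4 protease families was followed from lists of 64 names, of which 48 matched a gene and 23 passed the filter on low values. Against the control, 0 of these 23 genes passed the threshold at 1, 3, 6 or 12 h. The share of all kept genes that passed in either direction was 0.222% at 1 h, 1.39% at 3 h, 0% at 6 h and 0% at 12 h. At an unadjusted p under 0.05, 2, 4, 1 and 5 of the 23 passed at these times, and 9.33%, 13.9%, 5.52% and 7.6% of all kept genes did. The limma voom fit on recovered reads called 1 at 1 h, mmp23bb (log2 difference -7.68, adjusted p = 0.0146, with 0.506% of kept genes lower by voom), and 0 at the other times. Their median log2 difference was 0.24 at 1 h, 0.06 at 3 h, -0.24 at 6 h and 0.30 at 12 h. The same median over all kept genes was -0.12, -0.13, -0.02 and 0.32. At 12 h the scale itself matters, since median ratio scaling moved the median of all genes by -0.222.

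Of the secreted metalloproteinases 5 of 12 matched genes were kept. MMP2, the other gelatinase, was the most abundant of them and had its lowest levels where MMP9 had its highest. In the control it had 30.2, 20.4 and 26.8 FPKM, followed by 14.5, 18.1 and 16.3 at 1 h, and 9.59, 11.6 and 5.73 at 3 h. At 6 h it had 20.5, 34.0 and 15.3 FPKM, and at 12 h 35.0, 25.2 and 28.6. All 3 h libraries were below all libraries of the other groups. The share of this pattern among all kept genes was not counted, so nothing is read from it. The difference from the control missed the threshold (-1.46 ± 0.43 SE, adjusted p = 0.117), as did that between 12 and 3 h (1.65 ± 0.43 SE, adjusted p = 0.0504). The second passed without 1 h library A (adjusted p = 0.0488), without the unlettered 1 h library (0.0465) and without a filter on low values (0.0365). Measured in the same libraries, MMP2 thus exceeded MMP9 in FPKM in every library of the control, 1, 6 and 12 h and was below it in every 3 h library.

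Other secreted members varied more between libraries. mmp30 had 6.68 to 37.1 FPKM at 3 h and 9.56 to 13.0 in the control, with a difference of 0.69 ± 0.86 SE that missed the threshold (adjusted p = 0.783). MMP28 had 0.206, 0.229 and 1.17 FPKM in the control and 8.46, 9.87 and 8.14 at 12 h. Its 12 h libraries did not overlap those of any other group. The share of kept genes with this pattern was not counted, so nothing is read from it. The difference of 12 h from the control missed the threshold too (2.73 ± 0.80 SE, adjusted p = 0.397). mmp23bb had 10.5, 1.58 and 3.78 FPKM in the control and was listed at 0 in all 1 h libraries, and it missed the threshold in the main test (-2.38 ± 0.60 SE, adjusted p = 0.139). mmp13b, the other copy of the collagenase gene, was listed at 0 in every library but control A, where it had 1.70 FPKM. MMP11 and MMP21 were listed at 0 everywhere.

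Among the membrane-bound metalloproteinases, 4 of 8 matched genes were kept, and 0 of 4 passed the threshold at any time. MMP14, which in mammals activates pro-MMP2 at the cell surface, was the most abundant, with 5.71 to 12.2 FPKM in the control and 5.28 to 12.7 at 3 h (difference 0.18 ± 0.50 SE, adjusted p = 0.915). It sums 2 gene IDs, whose own differences were 1.201 and -0.14. MMP15 had 0 to 2.03 FPKM at 3 h and up to 11.5 at 12 h. MMP17 and mmp17b stayed at or below 3.79 FPKM in every library.

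Of the ADAM proteases 9 of 13 matched genes were kept. The second copy of the same family member, adam8a, had control levels of 0.667, 4.50 and 6.79 FPKM, followed by 12.0, 1.09 and 5.83 at 1 h, and 20.0, 13.0 and 12.8 at 3 h. At 6 h it had 3.08, 5.11 and 3.04 FPKM and at 12 h 0, 0.216 and 2.53. Its 3 h libraries were above all other libraries of the series, as were those of 1.26% of kept genes. adam8a was above adam8b in each 3 h library. The difference of 3 h from the control missed the threshold (1.94 ± 0.75 SE, adjusted p = 0.240). Between 3 and 12 h adam8a fell (log2 difference -3.29 ± 0.75 SE, adjusted p = 0.0261), in a comparison where 0.873% of kept genes fell; this comparison was picked out after its values were seen. That call was lost without any 1 of the 3 h libraries or without 12 h library A or B, with adjusted p up to 0.0913. ADAM9, a sheddase, had 0.594 to 0.904 FPKM in the control and 1.87 to 8.42 at 1 h, 2.69 to 4.93 at 3 h and 2.59 to 6.37 at 12 h. None of those ranges overlapped the control. At 3 h 7.65% of kept genes lay above it in this way. That share was not counted at 1 and 12 h, so nothing is read from the pattern there. All 3 differences missed the threshold (1.47, 1.46 and 1.71, each ± 0.61 SE, adjusted p = 0.471, 0.284 and 0.544). The Notch-cleaving adam10a (0.72 ± 0.61 SE at 3 h, adjusted p = 0.654) and ADAM15 (0.43 ± 0.49 SE, adjusted p = 0.765) missed the threshold at 3 h.

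The ADAMTS proteases cut proteoglycans and procollagens, and 5 of 15 matched genes were kept. ADAMTS3, a procollagen processing enzyme, was the most abundant, with 0 to 2.75 FPKM at 3 h and 2.39, 9.24 and 7.14 at 12 h (difference of 12 h from the control 1.82 ± 0.79 SE, adjusted p = 0.610). ADAMTS17 was listed at 0 in all 3 h libraries and had 1.36 to 2.67 FPKM at 12 h (12 h minus 3 h 1.55 ± 0.46 SE, adjusted p = 0.0815). Voom called it higher at 12 than at 3 h (6.88, adjusted p = 0.0152), as 1.63% of kept genes, and lower at 3 than at 1 h (-6.64, adjusted p = 0.0479), as 0.245%. ADAMTS1 and ADAMTS9 reached 6.71 and 2.51 FPKM at most. adamts13, whose human counterpart cuts von Willebrand factor, was listed at 0 in every library.

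**Figure D3:**
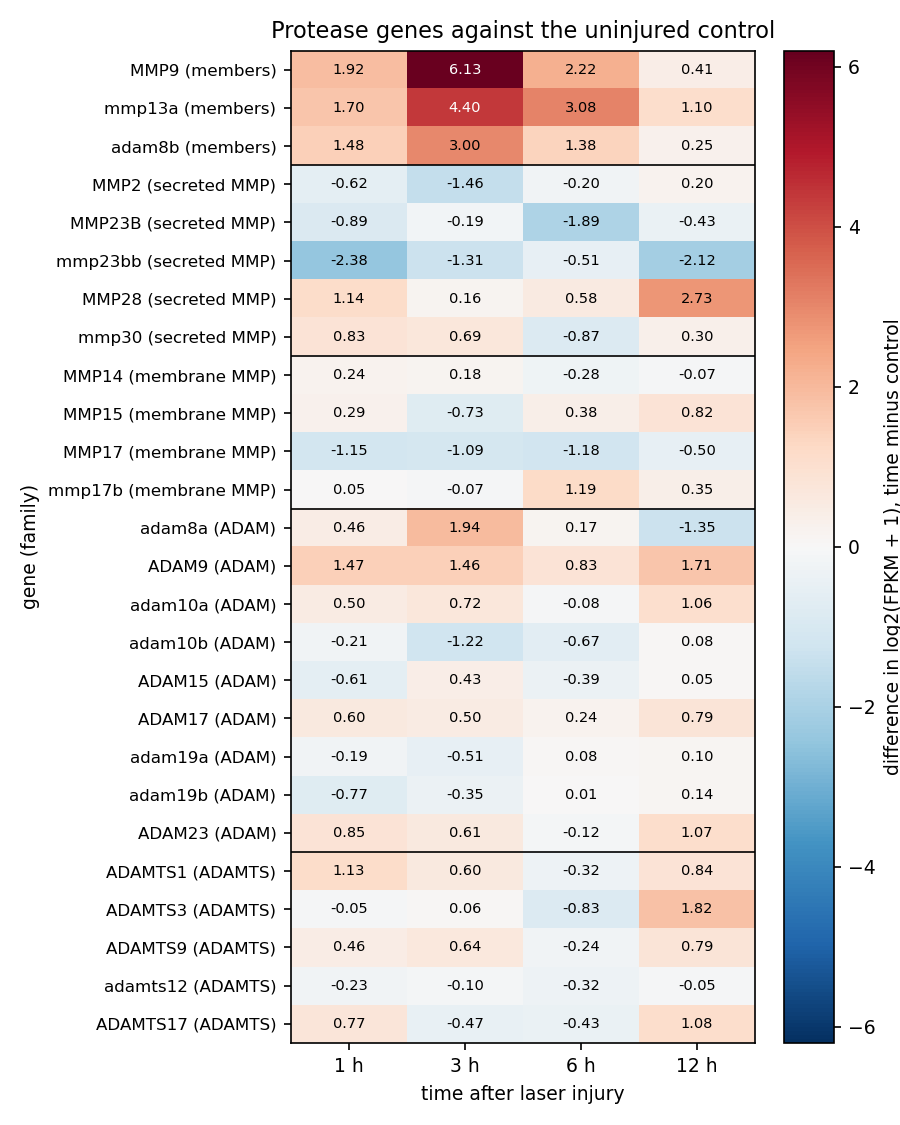
Rows are the 3 proteases (marked members) and the 23 kept genes of the 4 related families, columns the times after laser injury, and cells give the difference in log2(FPKM + 1) from the uninjured control. Red is higher and blue lower than the control. The strongest cell is MMP9 at 3 h (6.13), and the gelatinase MMP2 is blue at 3 h (-1.46); none of the 23 related genes passed the threshold against the control, and at 12 h the small positive values of MMP2, mmp30, ADAM15, adam10b, adam19a and adam19b turn negative under median ratio scaling.

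The inhibitors of these enzymes were represented by 4 kept genes of 7 matched, and 0 of 4 passed the threshold against the control at any time; at 3 h, 1 had an unadjusted p under 0.05 and voom called 0. TIMP2, which blocks metalloproteinases and binds pro-MMP2, had control levels of 4.18, 9.48 and 7.60 FPKM, followed by 9.06, 3.10 and 8.05 at 1 h, and 27.0, 18.1 and 27.8 at 3 h. At 6 h it had 11.0, 13.0 and 10.8 FPKM, and at 12 h 6.18, 5.43 and 12.2. Every 3 h library was above every other library, as for 1.26% of kept genes, and the difference from the control was 1.68 ± 0.51 SE (adjusted p = 0.127). The symbol sums 2 gene IDs. Tested apart, ENSDARG00000075261 rose at 3 h (2.73 ± 0.63 SE, adjusted p = 0.0425) and ENSDARG00000061226 had -0.37 ± 0.72 SE (adjusted p = 0.874); leaving out libraries was not run for single IDs. TIMP4, which sums 3 IDs, was the most abundant inhibitor and uneven, with control levels of 3.85 to 15.3 FPKM and 50.9, 32.0 and 7.33 at 3 h (1.65 ± 1.01 SE, adjusted p = 0.505). RECK, a membrane-anchored inhibitor, was listed at 0 in all 3 h libraries and had 0.0190 to 1.58 FPKM in the control (-0.55 ± 0.53 SE, adjusted p = 0.705). SPOCK1, a matrix proteoglycan, was above 0 in 3 libraries of the series.

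Plasmin, made from plasminogen, dissolves fibrin and activates several prometalloproteinases, and 7 of 12 matched genes followed from that system were kept. At 3 h 1 of the 7 rose and 0 fell (0.835% of all kept genes rose), and at 1, 6 and 12 h 0 passed the threshold by limma or voom, with 1, 0 and 3 at an unadjusted p under 0.05. Their median log2 difference at 3 h was 1.39, against -0.13 over all kept genes. ANXA2, which forms the plasminogen-binding complex on the cell surface, had 19.3, 21.1 and 25.3 FPKM in the control and 91.3, 135.5 and 16.7 at 1 h in library A, the unlettered library and library C. It had 476.4, 481.7 and 88.0 FPKM at 3 h, 40.2, 52.6 and 27.4 at 6 h, and 95.3, 51.9 and 78.6 at 12 h. As with MMP9, library C was the lowest at 1 h and at 3 h. ANXA2 rose at 3 h (3.59 ± 0.68 SE, adjusted p = 0.0155), a call lost without control A, control B, 3 h A or 3 h B (adjusted p up to 0.0801). Its partner s100a10b, the most abundant gene of the list, had 88.8 to 178.3 FPKM in the control and 1153, 689 and 229.5 at 3 h, and missed the threshold (2.23 ± 0.58 SE, adjusted p = 0.0708). s100a10b passed without 1 h C (adjusted p = 0.0283) or 3 h C (0.0172), under median ratio scaling (0.0372) and with array quality weights (0.0270). Voom on recovered reads also called it (adjusted p = 0.0132) as 1 of 2 genes of the list that rose, with 1.52% of kept genes higher by voom.

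SERPINE2, an inhibitor of thrombin and plasminogen activators, had its lowest levels at 1 h. It had 12.4, 26.8 and 16.2 FPKM in the control, 3.16 to 8.79 at 1 h, 71.1, 34.6 and 27.0 at 3 h and 4.84 to 12.1 at 6 h. The 3 h libraries did not overlap those of 1 h or 6 h. The share of this pattern among all kept genes was not counted, so nothing is read from it. Both differences missed the threshold. They were 2.70 ± 0.56 SE for 3 h minus 1 h (adjusted p = 0.0519) and -2.28 ± 0.56 SE for 6 h minus 3 h (adjusted p = 0.0572). SERPINE3 had 17.2, 0.129 and 5.01 FPKM at 3 h and up to 0.171 in the control (2.24 ± 0.81 SE, adjusted p = 0.205), and passed without library B (3.31, adjusted p = 0.0419). The activator genes were low. PLAT was listed at 0 in every control, 1 h and 3 h library, PLAU had at most 3.17 FPKM, and plaua, the other urokinase copy, had 8.90 FPKM in 3 h library A and at most 0.753 elsewhere. PLG, plasminogen itself, which the liver makes, had at most 0.310 FPKM.

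**Figure D4:**
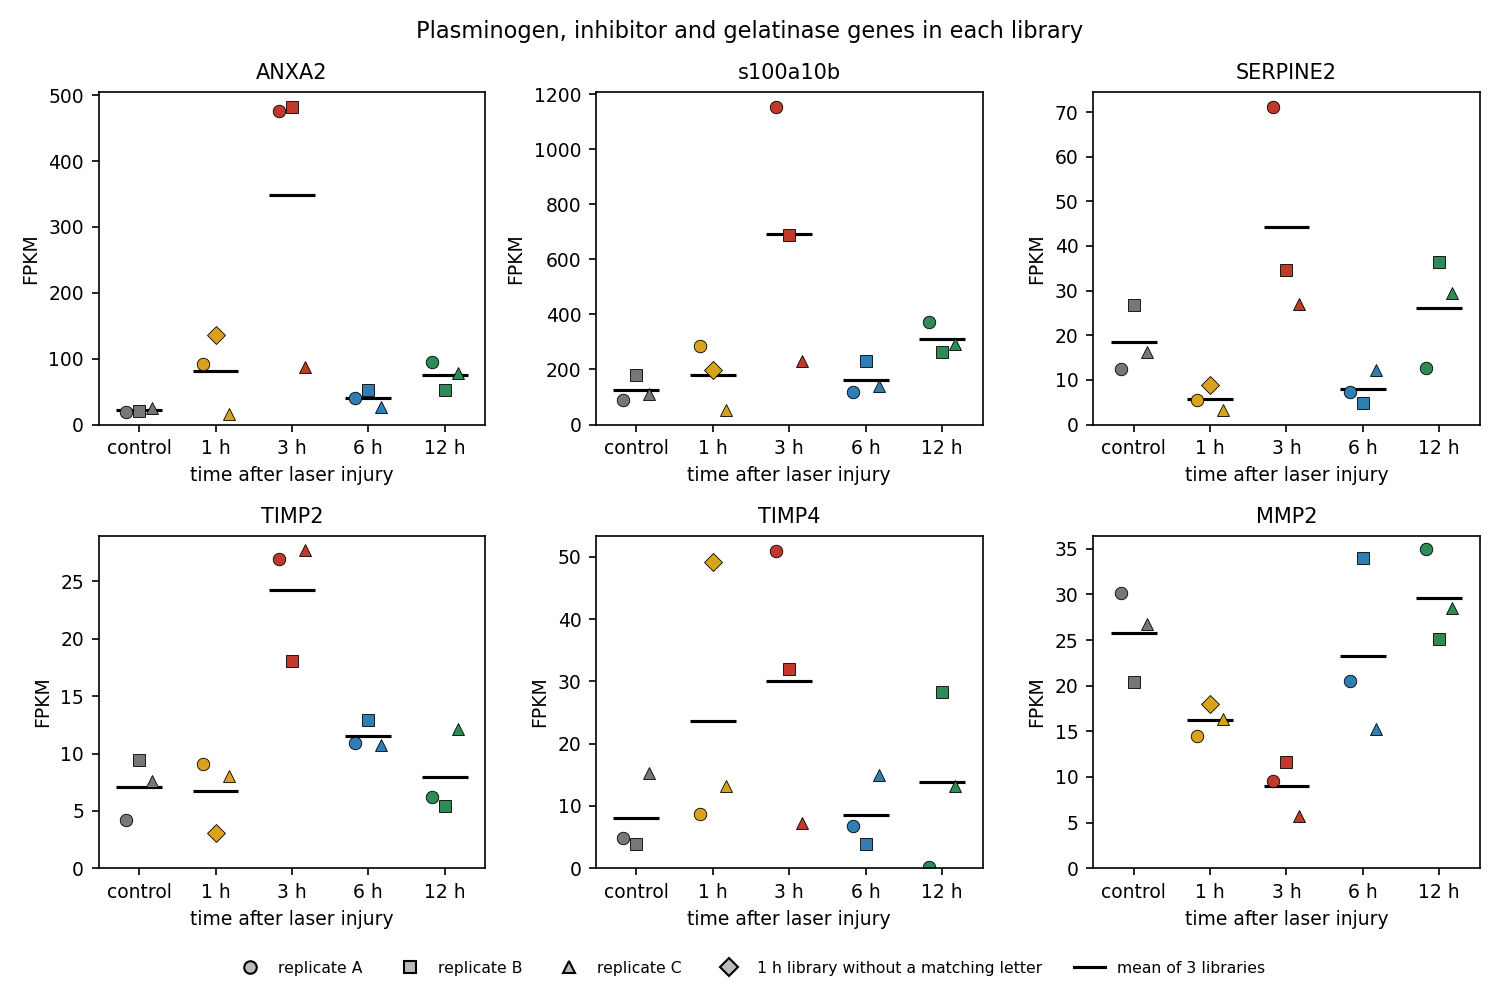
Each panel gives FPKM on a linear axis for ANXA2, s100a10b, SERPINE2, TIMP2, TIMP4 and MMP2 by time after laser injury, with 1 symbol per library and bars at the means of 3 libraries. ANXA2 reaches 476.4 and 481.7 in 3 h libraries A and B and 88.0 in C. TIMP2 has all 3 h libraries (18.1 to 27.8) above the rest, as have 1.26% of kept genes. MMP2 has all 3 h libraries (5.73 to 11.6) below the rest, a pattern whose share was not counted.

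Of the matrix proteins these enzymes can cut, 12 of 16 matched genes were kept, and 0 passed the threshold against the control at any time; 2, 4, 2 and 2 had an unadjusted p under 0.05 at 1, 3, 6 and 12 h. COL1A2, a fibrillar collagen chain and the most abundant of the list, had 241, 268.7 and 213.6 FPKM in the control and 169.6, 123.5 and 95.7 at 3 h (-0.92 ± 0.29 SE, adjusted p = 0.136). COL1A1, 1 copy of the other chain of that collagen, had 231 to 248.7 FPKM in the control and 114.9 to 165.4 at 3 h (-0.74 ± 0.27 SE, adjusted p = 0.204). Both of these genes had all 3 h libraries below all control libraries. The share of this pattern among all kept genes was not counted, so nothing is read from it. Voom on recovered reads called both lower (adjusted p = 0.0151 for COL1A2 and 0.0324 for COL1A1), as 1.18% of kept genes. Another kept copy of that chain, col1a1a, was not called by voom at 3 h. Its difference between 12 and 3 h was 0.016, and -0.387 under median ratio scaling. COL1A2 rose from 3 h to 276.5, 256.3 and 347.5 FPKM at 12 h (2.30-fold on the FPKM + 1 scale, 95% interval of the log2 difference 0.595 to 1.805, adjusted p = 0.0340), where 1.85% of kept genes rose. That call was lost under median ratio scaling (adjusted p = 0.163), with only the 2 groups compared (0.155) and without control A, 3 h B, 3 h C or any 12 h library (up to 0.119). FN1, fibronectin, had 1.79 to 3.34 FPKM in the control and 76.4, 45.0 and 8.11 at 3 h (3.28 ± 1.00 SE, adjusted p = 0.127). It sums 2 IDs whose own differences were 4.02 and -0.24. col4a5, a basement membrane collagen, had 3.39, 5.80 and 1.21 FPKM at 6 h and 35.7, 29.7 and 26.4 at 12 h, and rose between them (2.96 ± 0.53 SE, adjusted p = 0.0433), where 0.0613% of kept genes rose. That call was lost under median ratio scaling, with a pseudocount of 0.1, with only the 2 groups compared and without any 1 library of 6 or 12 h, control A, control B or 1 h A (adjusted p up to 0.197). col4a6, of the same collagen type, had 2.22 to 6.21 FPKM at 6 h and 8.30 to 19.4 at 12 h (1.83 ± 0.57 SE, adjusted p = 0.235).

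Cathepsins cut matrix and other proteins inside lysosomes, and 14 of 16 matched genes were kept, of which 0 passed the threshold against the control at any time (1, 3, 2 and 0 at an unadjusted p under 0.05 at 1, 3, 6 and 12 h). ctsla, the most abundant, had 144.5, 138.0 and 175.7 FPKM in the control and 612.9, 409.8 and 323.9 at 3 h (1.51 ± 0.43 SE, adjusted p = 0.102). Its 3 h libraries were all above the control, as for 7.65% of kept genes. ctsla passed with voom on recovered reads (adjusted p = 0.00820), with array quality weights (0.0453) and without 1 h library C (0.0304). CTSB had control levels of 24.6, 47.8 and 87.7 FPKM and 3 h levels of 0.433, 1.01 and 42.9 (-3.26 ± 1.00 SE, adjusted p = 0.131), and passed without 3 h library C (-4.82, adjusted p = 0.00490). CTSH had 15.8, 21.1 and 211.2 FPKM in the control, the last of them in library C, and 2.85 to 13.5 at 3 h (-2.39 ± 0.92 SE, adjusted p = 0.238). ctss2.2, which the macrophage list also holds, had 18.1, 3.98 and 24.3 FPKM at 12 h and 1.53 to 8.65 in the control (1.26 ± 0.71 SE, adjusted p = 0.707).

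In human cells, factors of the AP-1 family are known to act at the promoters of MMP9 and MMP13, and a list of such factors with related stress and cytokine regulators was followed: 12 of 15 matched genes were kept. The list was chosen with earlier results of these data known, so its counts are not independent of them. A part of these factors in the protease levels was not tested. At 1 h 4 of 12 rose (0.123% of all kept genes rose) and at 3 h 6 of 12 rose (0.835%), while 0 fell at either time; at 6 and 12 h 0 passed the threshold by limma or voom, with 2 and 0 at an unadjusted p under 0.05. Leaving out single libraries gave 0 to 3 at 1 h and 3 to 7 at 3 h. The median log2 difference of the list was 2.47 at 1 h and 2.82 at 3 h, against -0.12 and -0.13 over all kept genes. FOSL2 had control levels of 1.41, 1.67 and 4.05 FPKM, followed by 29.6, 46.2 and 28.2 at 1 h, and 61.0, 38.9 and 39.8 at 3 h, and rose at both times (3.45 ± 0.53 SE, adjusted p = 0.0100, and 3.87 ± 0.53 SE, adjusted p = 0.00119). The 3 h call held without any single library, and the 1 h call was lost without control A or B (adjusted p up to 0.0710). FOSL1 was listed at 0 in control A and C and had 0.151 FPKM in control B, against 7.39, 60.6 and 8.58 at 1 h and 77.3, 28.3 and 52.0 at 3 h. It rose at 3 h (5.56 ± 0.77 SE, adjusted p = 0.00119) without regard to which library was left out. Its rise at 1 h (4.02 ± 0.77 SE, adjusted p = 0.0413) held only when 1 h C, 3 h A, 6 h B, 6 h C, 12 h A or 12 h B was the library left out (adjusted p up to 0.155).

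fosl1b, a second copy of the FOSL1 gene, was listed at 0 in every control, 1 h and 12 h library. It had 5.42, 11.1 and 9.89 FPKM at 3 h and 2.59, 5.86 and 0.450 at 6 h. It rose against the control (3.24 ± 0.56 SE, adjusted p = 0.0102) and against 1 h (3.24 ± 0.56 SE, adjusted p = 0.0267), where 0.13% of kept genes rose, and the second call was lost without 1 h A, 1 h C or 3 h B (adjusted p up to 0.0649). As a description, MMP9 and mmp13a were above every control library in 2 and 3 of the 3 1 h libraries. adam8b was so in all of them but library A (0.446 FPKM, against up to 1.13 in the control). An order in time between fosl1b and the proteases was not tested. FOS had control levels of 0 to 3.69 FPKM, followed by 19.8, 271.6 and 18.01 at 1 h and 35.9, 32.9 and 37.6 at 3 h. It rose at 1 h (4.64 ± 0.84 SE, adjusted p = 0.0270; lost without control A or C, adjusted p up to 0.155) and at 3 h (4.25 ± 0.84 SE, adjusted p = 0.0192; lost without control A, control C, 3 h A or 3 h B, adjusted p up to 0.104).

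Of the other AP-1 genes, FOSB was listed at 0 in all control, 6 h and 12 h libraries and had 1.81, 13.9 and 7.04 FPKM at 1 h. Its rise at 1 h (2.80 ± 0.55 SE, adjusted p = 0.0447) held only when 1 h A or 3 h C was the library left out (adjusted p up to 0.183). ATF3 had control levels of 0 to 1.80 FPKM and 3 h levels of 68.7, 20.4 and 31.5 (4.69 ± 0.82 SE, adjusted p = 0.0105; lost without 3 h A, adjusted p = 0.0550). JUNB, the most abundant, had control levels of 10.4 to 17.3 FPKM and 3 h levels of 217.5, 121.1 and 104.1 (3.36 ± 0.71 SE, adjusted p = 0.0244; lost without any 1 control library, 3 h A or 3 h B, adjusted p up to 0.112). JUNB sums 2 gene IDs. Tested apart at 3 h, ENSDARG00000074378 rose (4.17 ± 0.70 SE, adjusted p = 0.00774) and ENSDARG00000104773 missed the threshold (2.78 ± 0.81 SE, adjusted p = 0.106). The unlettered 1 h library had the highest FOS, ATF3 and JUNB of the 1 h libraries (271.6, 62.2 and 313.9 FPKM). JUN (0.95 ± 0.52 SE, adjusted p = 0.439), JUND (1.52 ± 0.77 SE, adjusted p = 0.400), STAT3 (2.39 ± 0.64 SE, adjusted p = 0.0775, and 0.0453 without 12 h B) and RELA (-0.65 ± 0.86 SE, adjusted p = 0.801) missed the threshold at 3 h. From 3 to 6 h, FOS (-4.93 ± 0.84 SE, adjusted p = 0.00913), ATF3 (-4.82 ± 0.82 SE, adjusted p = 0.00913) and FOSL1 (-3.99 ± 0.77 SE, adjusted p = 0.0180) fell, in a comparison where 0.598% of kept genes fell. Voom called none of these 3 differences (adjusted p up to 0.121), nor FOS at 1 h or 3 h (0.220 and 0.176). The ATF3 call was lost without 3 h A (adjusted p = 0.0583), and the FOSL1 call without 3 h A, 6 h A or 6 h B (adjusted p up to 0.0931).

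The genes whose profile over the 15 libraries was most like each protease were found by the root mean square difference between log2(FPKM + 1) profiles, each centred on its own mean. Libraries of 1 group share their treatment, so this is a description. For MMP9, whose own profile had a root mean square of 2.33, near profiles were those of the polycomb gene cbx7a (1.13), the leptin gene lepb (1.21), the serpin gene serpinb14 (1.22) and the haem-degrading enzyme HMOX1 (1.25). mmp13a was the sixth nearest gene to MMP9 (1.27), and adam8b stood at rank 73. For mmp13a, with an own value of 1.80, they were the chaperone HSP90AA1 (0.893), tinagl1 (1.03), the transporter SLC16A6 (1.06), igfbp1b (1.09) and cbx7a (1.11). HSP90AA1 had means of 17.7, 54.1, 27.8 and 5.03 FPKM at 1, 3, 6 and 12 h, with its second highest mean at 6 h as for mmp13a. For adam8b, with an own value of 1.27, they were klf13 (0.637), the actin-binding CNN2 (0.685), HIVEP2 (0.730), the cytokine il1b (0.744) and SRPRA (0.752). MMP9 and mmp13a stood at ranks 6639 and 4821 of likeness to adam8b. The measure is not scaled for the size of a profile, so these ranks do not compare its shape. Their distances from adam8b, 1.60 and 1.49, exceeded its own value of 1.27, which is its distance to a flat profile. All 3 proteases had their highest mean at 3 h. il1b was listed at a mean of 0 in the control and had 2.60 FPKM at 3 h.

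Leukocyte and epidermal cells are known sources of these proteases, and the sums of their marker lists were set beside the protease levels. The neutrophil list (10 of 14 matched genes kept) summed to 82.9 to 112.8 FPKM in the control, 23.7 to 84.7 at 1 h, 108.0 to 185.6 at 3 h, 59.2 to 108.4 at 6 h and 15.3 to 239.6 at 12 h. In it, 0 genes passed the threshold at 3 h by limma or by voom, and 1 had an unadjusted p under 0.05. Its median log2 difference at 3 h was 0.82 against the control and 1.09 against 1 h, with 7 and 9 of 10 kept genes above 0. The same medians over all kept genes were -0.13 and 0.002, with 5717 and 6545 of 13051 genes above 0. The highest neutrophil sum, 239.6, was in 12 h library A, where MMP9 had 1 read and mmp13a 2. The defining gene lyz had at most 0.693 FPKM in any library, and cxcr1 was listed at 0 in all but 1 h library A. Of the macrophage list 13 of 18 matched genes were kept and 0 passed at 3 h by either tool, with 1 at an unadjusted p under 0.05; it summed to 48.6 to 150.4 FPKM in the control, 18.7 to 50.2 at 1 h, 17.3 to 97.4 at 3 h, 66.9 to 100.8 at 6 h and 68.7 to 307.6 at 12 h. Its highest sum was in 12 h library C, the 12 h library with the most MMP9 and mmp13a, and its lowest in 3 h library C. The median log2 difference of the macrophage list at 3 h was -0.83 against the control and 0.31 against 1 h. MPEG1 had at most 2.92 FPKM. The general leukocyte list (11 of 13 matched genes kept, tyrobp at 0 everywhere) summed to 88.3 to 120.0 FPKM in the control, 63.4 to 100.8 at 1 h, 67.3 to 108.1 at 3 h, 98.0 to 126.9 at 6 h and 95.2 to 304.4 at 12 h. Its median log2 difference at 3 h was -0.394 against the control and 0.235 against 1 h.

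The epidermal list (26 of 32 matched genes kept, itga6b and lamb3 at 0 everywhere) had 1 gene that rose at 3 h, the integrin gene ITGB4 (2.96 ± 0.71 SE, adjusted p = 0.0462). That call was lost with a pseudocount of 0.1, without a filter, with only the 2 groups compared and without any 1 control or 12 h library, 3 h A, 3 h B, 6 h B or 6 h C (adjusted p up to 0.217). Its control sums were 10340, 7770 and 8615 FPKM, followed by 7115, 11241 and 1447 at 1 h in library A, the unlettered library and library C, and 12325, 8106 and 2278 at 3 h. It summed to 1600, 4635 and 3852 FPKM at 6 h and 14779, 14298 and 13956 at 12 h. At 1 h and 3 h library C thus had the least epidermal RNA, and these libraries also had the least MMP9 of their groups. adam8b differed in this. In 1 h library C it had 4.87 FPKM (215 reads), near the unlettered library (4.47 FPKM, 214 reads) and above library A (0.446 FPKM). mmp13a had 47 reads in both 1 h library C (2.14 FPKM) and the unlettered library (1.97 FPKM), so no order is read between them. At 3 h mmp13a was lowest in library C (11.8) and adam8b in library B (5.16). 3 h library C, with a lower epidermal sum than every control library, had 46.5 FPKM of MMP9, and the 12 h libraries, with higher sums than every other library, had at most 1.90. The part of these cell types in the protease levels was not tested.

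**Figure D5:**
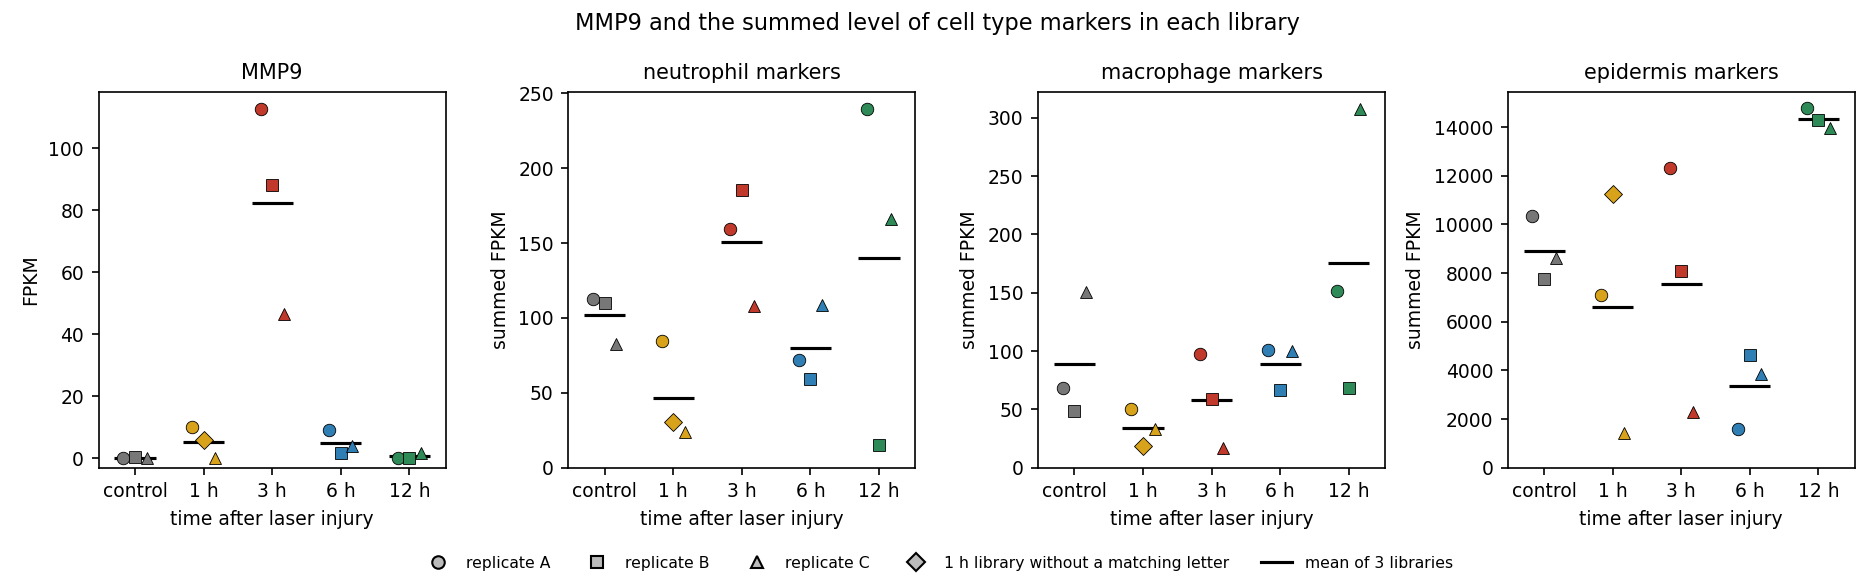
The first panel gives MMP9 in FPKM and the others the summed FPKM of the neutrophil (14 genes), macrophage (18 genes) and epidermis (32 genes) marker lists, by time after laser injury, with 1 symbol per library and bars at the means of 3 libraries. MMP9 peaks in the 3 h libraries, whereas the neutrophil sum is highest in 12 h library A (239.6), the macrophage sum in 12 h library C (307.6) and the epidermis sum in the 12 h libraries (13956 to 14779).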

How the data were processed

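RNA was sequenced from laser-captured tissue of 15 libraries in 5 groups of 3. Per the labels' protocols and the submitters' processing notes, RNA was extracted with TRizol and sequenced in pairs, HISAT aligned the reads to GRCz11 from Ensembl release 106, and the authors calculated FPKM with StringTie and edgeR, of unstated version. The deposited table has FPKM for 32520 gene IDs. Its 3 columns named for 5 h belong to no labelled sample and were not used. The 1 h column lettered B has no title of that letter and is only known to be a 1 h library.

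A symbol was at hand for 29201 IDs. Summing the FPKM of IDs that share one gave 28103 genes. The filter on low values asked for an FPKM of 1 or more in 3 or more libraries and left 13051. Of these, 1280 sum several IDs, which can share reads. Values were whole multiples of 1 read for all 20690 IDs above 0 in at least 2 libraries, within 0.001 reads. The fit used limma 3.58.1 (R 4.3.3) on log2(FPKM + 1), with a trend, all 15 libraries in 1 fit, two-sided, with Benjamini-Hochberg adjustment over kept genes at a threshold of 0.05. Differences on this scale understate the change of low genes. The script was tested on simulated data.

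The members, gene lists and tests were chosen with earlier results of these data known. Named were the 3 proteases; from each list other than the marker lists the genes past the threshold against the control or between consecutive times, up to 4 with the smallest moderated F p and the most abundant gene; and the 5 genes nearest to each protease, clone names left out. 1 gene was taken out of these lists and is not reported here. The settings varied were the pseudocount (0.1), the filter (none), the scaling (median ratio), only the 2 groups compared, a replicate block, 1 value per gene ID, voom on recovered reads, array quality weights, and leaving out each library. No genome of the build was at hand, so no coordinates or sequences are given.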

Additional observations from a re-analysis of the deposited data

Results flagged for a closer look

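Among the genes named beside the proteases, 5 differed between consecutive times by the limma test of that difference, with adjustment over all kept genes. Passing this test was 1 of the grounds for naming a gene, so nothing is read from the count of 5. Of all 13051 kept genes, 17 rose and 15 fell from 1 to 3 h. From 3 to 6 h 67 rose and 78 fell, and from 6 to 12 h 8 rose and 5 fell. Between 3 and 6 h, FOS differed by -4.93 (adjusted p = 0.00913), with every 6 h library below every 3 h library, a pattern whose share among all kept genes was not counted. ATF3 differed by -4.82 (adjusted p = 0.00913) between the same times, and FOSL1 by -3.99 (adjusted p = 0.0180). Between 1 and 3 h, fosl1b differed by 3.24 (adjusted p = 0.0267), from listed at 0 in all 3 libraries to 5.42 to 11.1 FPKM. Between 6 and 12 h, col4a5 differed by 2.96 (adjusted p = 0.0433), with every 12 h library above every 6 h library, a share not counted either. The proteases themselves gave no difference past the threshold among 1, 6 and 12 h. Groups of 3 libraries are too small for the check on single libraries that stand apart.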

How the results depend on the processing

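None of the 9 tests of the proteases passed the threshold under any alternative, and the adjusted p ran from 0.138 to 1. Directions turned for 3 of them. MMP9 at 6 against 1 h ran from -0.740 to 0.999 when single libraries were left out, mmp13a at 12 against 1 h from -1.767 to 0.140, and adam8b at 6 against 1 h from -0.760 to 0.285. The others kept their direction: MMP9 at 12 against 6 h (-2.30 to -1.34) and 12 against 1 h (-2.56 to -0.82), mmp13a at 6 against 1 h (1.06 to 1.98) and 12 against 6 h (-3.14 to -1.24), and adam8b at 12 against 6 h (-1.52 to -0.56) and 12 against 1 h (-1.89 to -0.88). The described differences of 3 h from control grew with a pseudocount of 0.1 (8.81 for MMP9, 5.95 for mmp13a, 5.33 for adam8b) and with voom on recovered reads (10.93, 6.34, 7.56), scales that compress low levels less; without single libraries they ran from 5.86 to 6.49, 4.02 to 5.01 and 2.60 to 3.37. Related proteases called at 1 h numbered 1 with voom; the other counts against the control were 0 under every alternative. No pairing of the libraries by replicate letter was seen: deviations of same-lettered libraries correlated at -0.155 to 0.134, and 5 of 14 lettered libraries were closest to their own letter. The labels do not say what the letters stand for, so whether they pair the libraries stays unsettled. With a replicate block, adam8b at 6 against 1 h was 0.237, and of all kept genes 2 rose and 7 fell at 1 h against the control (16 and 13 without it), 112 and 58 at 3 h (109 and 72). The block gave the unlettered 1 h library a level of its own, which takes that library out of every comparison with 1 h. FOSL1 at 1 h against the control was 2.86 with the block and 3.10 without the unlettered library. The block ended the 1 h calls of FOS, FOSB, FOSL1 and FOSL2. Only the 2 groups compared left 0 calls at 1 h and 23 higher and 7 lower at 3 h over all genes, voom 31 and 66, and 199 and 154, no filter 10 and 6, and 55 and 39. With only the 2 groups compared, the calls of ANXA2, ATF3, FOS and fosl1b at 3 h and every named call between times except FOS at 6 against 3 h were also lost. Without a filter the calls of ANXA2, FOS and JUNB at 3 h, FOS, FOSB and FOSL1 at 1 h, FOSL1 at 6 against 3 h, fosl1b at 3 against 1 h and adam8a at 12 against 3 h were lost. The block also ended ITGB4 at 3 h, fosl1b at 3 against 1 h (as did array quality weights), col4a5 at 12 against 6 h and COL1A2 at 12 against 3 h, and a pseudocount of 0.1 ended FOSL1 at 6 against 3 h. Low reads limit MMP9 and adam8b in control A and C (0 reads), and MMP9 in 1 h C (0) and in 12 h A and B (1 and 4). They also limit adam8b in 12 h A (6), and mmp13a in control B and C (5 each) and 12 h A (2). Shares of the 3 h mean without each library were added after seeing the data.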
